A study of Mus musculus with 9 samples.

Results

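The 44 genes described here run the redox chemistry of the cell: a hydrogen peroxide–producing NADPH oxidase, the NRF2 pathway, glutathione enzymes, superoxide dismutases, catalase, peroxiredoxins, thioredoxin, metallothioneins, ferritin, and the enzymes that supply NADPH. They were chosen by name from a list of symbols, with no threshold on any measured value but with earlier results of these data known. The shares set beside the backgrounds below are therefore descriptions of this list. Each of the 44 symbols matched a single identifier among the 55416 Ensembl genes listed, and 44 of 44 passed the filter on low counts that left 14879 genes for testing. Their mean levels over the 9 libraries started at 108 normalized counts, so none was near the limit of detection.

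RNA-Seq was run on AdvSca1-SM cells, the adventitial progenitors that descend from arterial smooth muscle and carry the surface protein Sca1. They were sorted as YFP+ and Sca1+ cells from carotid arteries, the aortic arch, and the descending aorta of pooled, 8-week-old SM22α-Cre-YFP mice on a C57BL/6 background, in which the SM22α promoter drives Cre and thereby the YFP reporter, and were then subcultured. By the study's text, the Stem group stayed in stem cell media, an αMEM-based medium with serum, basic fibroblast growth factor, and epidermal growth factor. The labels call these libraries vehicle, and the medium was not taken from them. The TGF-β group received 5 ng/mL TGF-β1 in DMEM with 0.1% FBS, and the Both group received the same plus 50 µM PFI-3, a compound directed at the bromodomain of Brg1, a chromatin remodeler. Each group had 3 libraries, and all cells received 0.1% DMSO for 72 hours. The study's methods place a growth arrest in 0.1% serum before TGF-β1 or PFI-3. Medium, serum, growth factors, the growth arrest, and TGF-β1 change together between Stem and TGF-β, so their parts cannot be told apart. In what follows, "with TGF-β1" stands for the TGF-β group compared with Stem, all of these changes included. The step from TGF-β to Both adds PFI-3 alone. No library of PFI-3 alone or of DMEM without TGF-β1 was analysed here. The study describes the replicates as independent, but the mice were pooled and no label ties a library to a culture or an animal, so the p-values measure the spread between these libraries.

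Superoxide and hydrogen peroxide arise from NADPH oxidases and mitochondria and act as signals at low levels and as toxins at high ones. Superoxide dismutases turn superoxide into hydrogen peroxide, which catalase, glutathione peroxidases, and peroxiredoxins then remove. Glutathione and thioredoxin supply the electrons and are recharged with NADPH from the pentose phosphate pathway and malic enzyme. The transcription factor NRF2 (*Nfe2l2*), held in check by its sensor KEAP1, switches on many of these genes through the antioxidant response element, a short DNA motif. In fibroblasts, NOX4 is known as an oxidase that TGF-β1 induces during myofibroblast differentiation.

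Total counts ran from 35686291 to 47741128 per library, and counts are given below as normalized counts, scaled to a library of 41184338. Replicates of a group varied with a biological coefficient of variation of 6.13%, and the replicate spread of the 44 genes had a median coefficient of variation of 6.94% for Stem, 4.08% for TGF-β, and 3.68% for Both. The genes took 0.587% to 0.616% of the counts in Stem, 0.658% to 0.701% in TGF-β, and 0.634% to 0.664% in Both. The share of mitochondrial counts also moved with the groups, from 14.2% to 15.4% in Stem, 12.1% to 12.2% in TGF-β, and 14.3% to 14.8% in Both, and its part in the results was not tested. Of 6 progenitor markers, *Pdgfra*, *Ly6a* (Sca1), *Cd34*, and *Scara5* fell with TGF-β1, whereas *Klf4* rose by 0.72 on the log2 scale and *Gli1* rose from 1.06 ± 1.05 to 11.6 ± 0.703 normalized counts (SD, n = 3). The 6 summed to between 54276 and 62686 normalized counts in Stem and between 12714 and 13346 in Both, with 12792 to 12944 in TGF-β. The 6 myofibroblast and smooth muscle markers summed to 10564 to 12270 in Stem, 36923 to 40529 in TGF-β, and 20079 to 22116 in Both, but *Myh11* fell by 1.58 on the log2 scale with TGF-β1 and *Cnn1* did not pass the test. Of 7 macrophage markers, *Adgre1*, *Itgam*, and *C1qa* were at 0 in all libraries and *Ptprc* in Stem. The summed macrophage level was 381 to 500.4 in Stem, 211 to 243 in TGF-β, and 293 to 312 in Both, and its part was not tested. Within it, *Cd14* fell by 1.57 on the log2 scale with TGF-β1, whereas *Csf1r* rose by 1.41 and *Cd68* by 1.86. With PFI-3 *Csf1r* rose by a further 0.86 (adjusted p = 0.0149). The labels name the tissue as aorta and carotid artery but speak of hepatic tissue for the RNA extraction. Of 7 hepatocyte markers, *Serpina1a* and *Cyp3a11* were at 0 in all libraries, and *Alb*, *Apoa1*, *Ttr*, and *Fgb* had at most 1.76 normalized counts in any. *Apob*, the other one, had 39.9 ± 7.82 normalized counts in Stem, 30.0 ± 1.29 with TGF-β1, and 15.8 ± 4.55 with PFI-3 added (SD, n = 3), and its fall with PFI-3 passed the test (adjusted p = 0.0461). In bulk RNA, fewer cells of a type and less RNA per cell cannot be told apart.

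Between Stem and TGF-β, most of the redox genes were higher with TGF-β1. At an adjusted p below 0.05, 28 of the 44 rose and 14 fell, against a background of 75.0% of all tested genes called, 37.3% higher and 37.7% lower. The larger changes were uneven in direction: 13 rose and 2 fell past the 2-fold threshold (adjusted p below 0.05 and a change of more than 2-fold), which 25.1% of all tested genes passed, 10.6% upward and 14.5% downward. Among the 10899 genes with a mean of at least 100 normalized counts, as all 44 have, 8.30% rose and 8.14% fell past it. At an adjusted p below 0.05 alone, 42.1% of these rose and 36.6% fell. The median log2 fold change of the 44 genes was 0.33, and that of all tested genes was -0.003. The genes past 2-fold upward were *Nox4*, *Nqo1*, *Hmox1*, *Srxn1*, *Gss*, *Gsr*, *Gpx7*, *Prdx6*, *Txn1*, *Mt1*, *Mt2*, *Ftl1*, and *Me1*, and those downward were the glutathione S-transferases *Gstm1* and *Gstt1*. *Prdx1* and *Prdx4* did not pass the test. The values of the groups did not overlap in 41 of the 44 genes, against a background of 76.8%.

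Between TGF-β and Both, the changes were small and mostly downward. At an adjusted p below 0.05, 12 of the 44 genes fell and 1 rose, against a background of 8.92% called, 5.38% lower and 3.54% higher. *Gsta4* fell past the 2-fold threshold, which 0.632% of all tested genes passed, 0.470% downward. The median log2 fold change was -0.10, with 36 of the 44 genes below 0, and that of all tested genes was -0.002. The groups did not overlap in 24 of the 44 genes, against a background of 32.7%. The TGF-β libraries serve both comparisons, so the changes in each are given side by side for every gene and were not counted together.

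**Figure D1:**
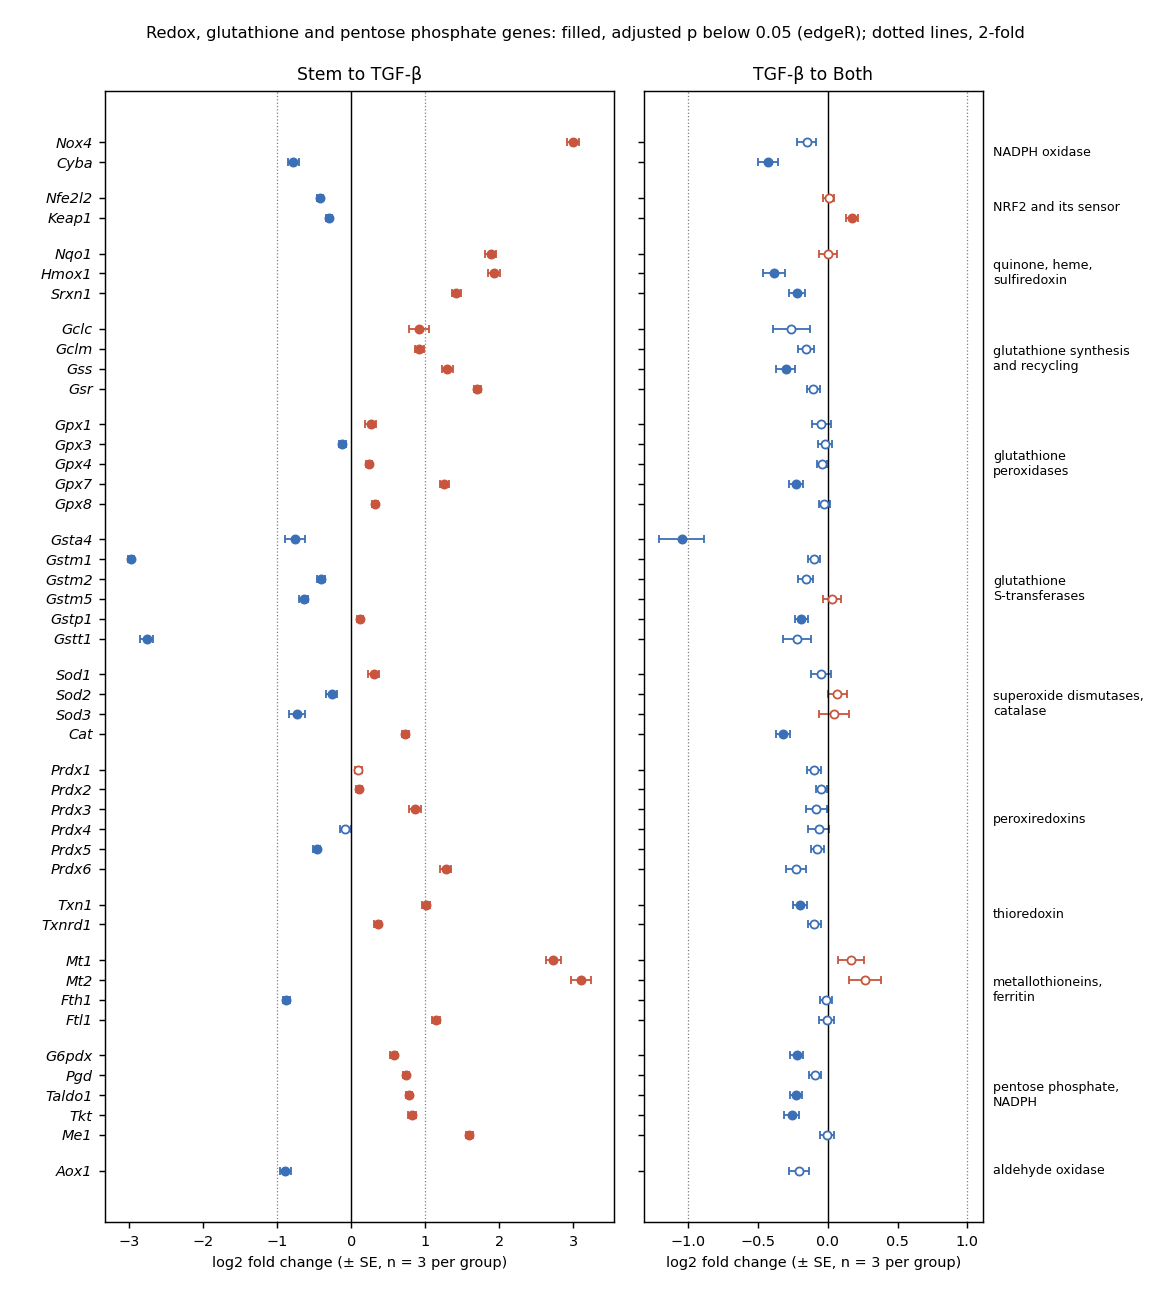
Log2 fold changes of the 44 genes with their standard errors, grouped by role, from Stem to TGF-β (left) and from TGF-β to Both (right, on its own scale). Filled points have an adjusted p below 0.05 and dotted lines mark 2-fold. *Nox4*, *Mt1*, and *Mt2* lie farthest right and *Gstm1* and *Gstt1* farthest left on the left panel, and *Gsta4* is the filled point beyond 2-fold on the right panel.

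*Nox4* (ENSMUSG00000030562) encodes the NADPH oxidase that makes hydrogen peroxide without a separate trigger, and *Cyba* encodes p22phox, the membrane partner that NOX4 needs. *Nox4* had 539, 670.4, and 607 normalized counts in the Stem libraries, 4464, 5149, and 4818 in the TGF-β libraries, and 4242, 4640.1, and 4099.7 in the Both libraries. Every TGF-β library was far above every Stem library, and the TGF-β and Both libraries overlapped. The rise was 7.95-fold (log2 fold change 2.99, SE 0.081, adjusted p = 1.21e-11), and with PFI-3 the log2 fold change was -0.15 (SE 0.070, adjusted p = 0.209). *Cyba* ran the other way, with 2945, 3391, and 2944 normalized counts in Stem, 1797, 1879, and 1711 with TGF-β1, and 1268, 1475, and 1259 with TGF-β1 plus PFI-3. The 3 groups did not overlap and each step was downward. *Cyba* fell 1.72-fold with TGF-β1 (log2 fold change -0.78, SE 0.072, adjusted p = 7.54e-07) and a further 1.35-fold with PFI-3 (log2 fold change -0.43, SE 0.073, adjusted p = 0.00373). Between Stem and Both its fall came to 2.32-fold. Per kilobase of transcript, *Cyba* exceeded *Nox4* in each group, with 4158 ± 347 and 161 ± 17.5 normalized counts per kilobase (SD, n = 3) in Stem and 2413 ± 113 and 1282 ± 91.2 in TGF-β.

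The other NADPH oxidase genes were examined beside them. Of 16 listed oxidases and partners, 6 had enough counts to test. Of these, 4 rose and 1 fell with TGF-β1, beside 37.3% and 37.7% of all tested genes. None passed the test with PFI-3 by edgeR (0 also at an unadjusted p below 0.05). Past 2-fold, 2 rose and 1 fell with TGF-β1, and the log2 fold changes of the 6 ran from -1.02 to 4.98. *Cybb*, *Nox3*, *Noxa1*, and *Ncf4*, which encode the phagocyte oxidase or parts of other oxidases, had at most 1 count in a Stem library, and *Nox1* at most 5. These counts are for Stem alone and do not speak for TGF-β or Both. *Duox1*, a dual oxidase, had 1.80 ± 1.27 normalized counts without TGF-β1 and 60.0 ± 8.08 with it (SD, n = 3, adjusted p = 4.14e-08). It lies under the mean of 100 normalized counts that the rule for naming these genes asked for, and was named after its values were seen.

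*Nfe2l2*, which encodes NRF2, and *Keap1*, its sensor, both fell with TGF-β1. *Nfe2l2* had 3550.0, 3599.9, and 3599 normalized counts in Stem, 2555, 2791, and 2631 with TGF-β1, and 2569.6, 2752, and 2683 with TGF-β1 plus PFI-3. The TGF-β and Both values overlapped and all lay below Stem. Its fall was 1.35-fold (log2 fold change -0.43, SE 0.042, adjusted p = 1.48e-06), and with PFI-3 the log2 fold change was 0.005 (SE 0.042, adjusted p = 0.966). *Keap1* had 4034, 3676, and 3766 in Stem, 3176, 3056, and 3047 with TGF-β1, and 3610.4, 3383, and 3448 with TGF-β1 plus PFI-3, with Both between the other groups and without overlap. It fell 1.24-fold with TGF-β1 (adjusted p = 4.55e-05) and rose slightly with PFI-3 (log2 fold change 0.17, SE 0.044, adjusted p = 0.0326). The PFI-3 call on *Keap1* was lost without any of TGF-β replicates 1, 2, and 3 or Both replicates 1 and 3, with adjusted p from 0.0107 to 0.150 over the 9 fits that left out a library. Scaling by total counts also ended it (adjusted p = 0.0563).

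*Nqo1*, *Hmox1*, and *Srxn1*, textbook targets of NRF2, rose past 2-fold. *Nqo1*, a quinone reductase, had 231, 199.9, and 206 normalized counts in Stem, 761, 817, and 768 with TGF-β1, and 813, 810.4, and 729 with TGF-β1 plus PFI-3. It rose 3.68-fold (log2 fold change 1.88, SE 0.075, adjusted p = 3.58e-10), and TGF-β and Both overlapped (log2 fold change 0.003, adjusted p = 0.986). *Hmox1*, the heme oxygenase that frees iron from heme, had 2564, 2179, and 2436 in Stem, 8365, 9981, and 8963 with TGF-β1, and 6412, 7588, and 6871 with TGF-β1 plus PFI-3. Its 3 groups did not overlap, with Both between Stem and TGF-β. It rose 3.80-fold with TGF-β1 (log2 fold change 1.93, SE 0.082, adjusted p = 5.94e-10) and fell 1.31-fold with PFI-3 (log2 fold change -0.39, SE 0.078, adjusted p = 0.00914). *Srxn1*, the sulfiredoxin that repairs overoxidized peroxiredoxins, had 1204, 1046, and 1137 in Stem, 2935, 3211, and 2903 with TGF-β1, and 2526, 2642, and 2593 with TGF-β1 plus PFI-3. It rose 2.67-fold (log2 fold change 1.42, SE 0.057, adjusted p = 3.64e-10) and fell 1.17-fold with PFI-3 (log2 fold change -0.22, SE 0.054, adjusted p = 0.025). The smaller step was lost without TGF-β replicate 1 or 2 or Both replicate 1 or 3, with adjusted p up to 0.119, and when libraries were scaled by total counts (adjusted p = 0.0649).

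**Figure D2:**
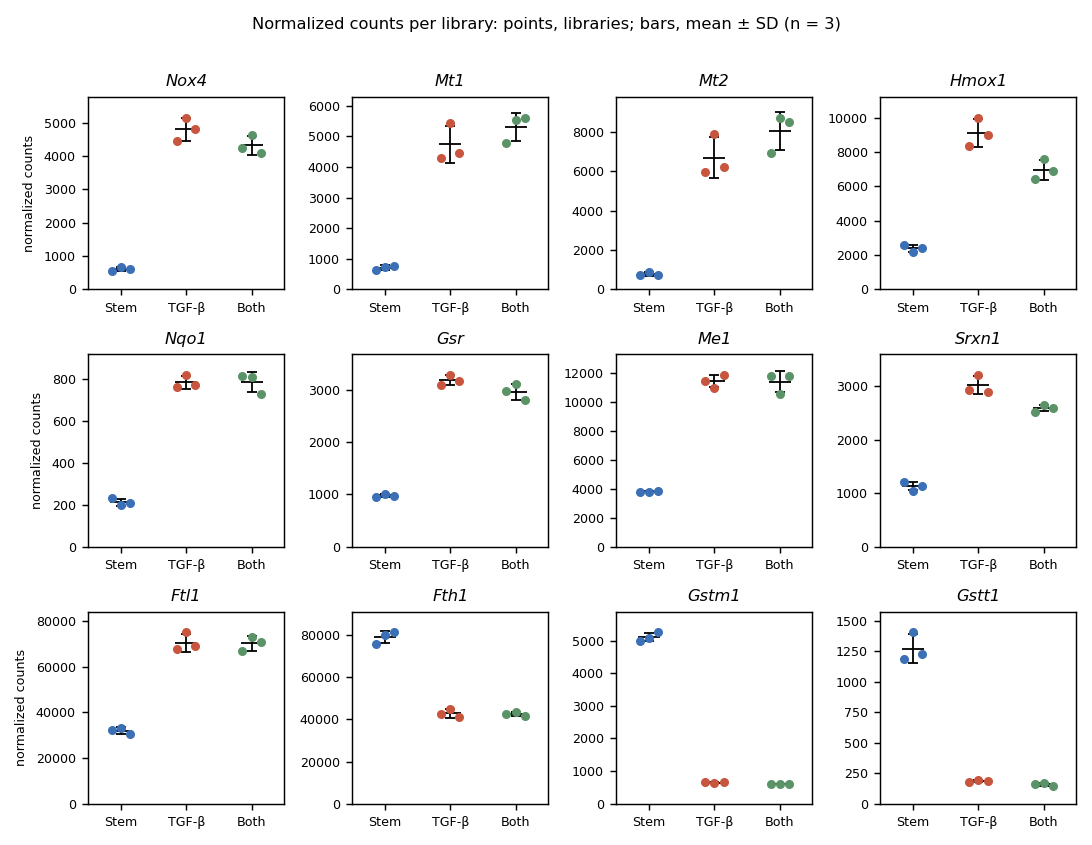
Normalized counts per library (vertical axes, each from 0) of 12 redox genes in Stem, TGF-β, and Both, with the mean ± SD of the 3 libraries. Stem and TGF-β are separate in all 12 panels, with TGF-β higher except for *Fth1*, *Gstm1*, and *Gstt1*. All 12 genes shown had passed the test between these groups, so their separation is not further evidence.

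The antioxidant response element was looked for in the promoters of these genes as a description of their sequence. RefSeq promoter windows of 300 bases (250 before to 50 after a gene's start, GRCm38.p6) were at hand for 38 of the 44 genes, 47 windows in all. The core TGACNNNGC was present on either strand in 11 of the 47 windows (23.4%), against 12.4% of all 32851 promoter windows. The 11 matches are printed with 10 bases on each side, on the strand that reads TGACNNNGC, with the core in capitals. They show which of the genes carry the letters and how the middle of the core differs between them.
G6pdx at chrX:74428919-74428947 (plus strand): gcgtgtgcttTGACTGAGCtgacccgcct
Gclm at chr3:122245413-122245441 (minus strand): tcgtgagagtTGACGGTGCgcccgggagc
Gstm5 at chr3:107895802-107895830 (plus strand): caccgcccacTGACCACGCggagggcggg
Me1 at chr9:86695902-86695930 (minus strand): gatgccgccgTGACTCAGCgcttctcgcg
Mt2 at chr8:94172529-94172557 (plus strand): aaagggggtgTGACTCAGCgcggggggtg
Nfe2l2 at chr2:75704885-75704913 (minus strand): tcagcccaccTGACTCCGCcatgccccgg
Pgd at chr4:149166061-149166089 (minus strand): atttcagagcTGACATTGCactgatcgga
Prdx1 at chr4:116685456-116685484 (minus strand): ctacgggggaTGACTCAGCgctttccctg
Sod1 at chr16:90220696-90220724 (minus strand): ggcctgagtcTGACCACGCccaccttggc
Srxn1 at chr2:152105542-152105570 (minus strand): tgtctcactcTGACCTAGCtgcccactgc
Txnrd1 at chr10:82859104-82859132 (minus strand): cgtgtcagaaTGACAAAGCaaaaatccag

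The cores of *Me1*, *Mt2*, and *Prdx1* open with TGACTCA, the letters that AP-1 also binds, which 149 of all promoter windows (0.454%) hold in this place. Of the 11 genes, *Me1*, *Mt2*, *Srxn1*, *G6pdx*, *Gclm*, *Pgd*, *Sod1*, and *Txnrd1* rose with TGF-β1, *Gstm5* and *Nfe2l2* fell, and *Prdx1* did not pass the test. Of all 44 redox genes, 28 rose and 14 fell. The windows of the other genes at hand, *Nqo1* and *Nox4* among them, held no core, which says only that these letters are not within them.

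All 4 genes of glutathione synthesis and recycling rose with TGF-β1. *Gsr*, glutathione reductase, which recharges oxidized glutathione with NADPH, had 952, 1008, and 974 normalized counts in Stem, 3088, 3281, and 3176 with TGF-β1, and 2969, 3111, and 2807 with TGF-β1 plus PFI-3. It rose 3.25-fold (log2 fold change 1.70, SE 0.049, adjusted p = 1.88e-11), and TGF-β and Both overlapped (log2 fold change -0.10, adjusted p = 0.187). *Gss*, glutathione synthetase, had 622, 577, and 495 in Stem, 1402, 1432, and 1331 with TGF-β1, and 1068, 1156, and 1152 with TGF-β1 plus PFI-3. The groups did not overlap, and Both lay between the others. *Gss* rose 2.46-fold (log2 fold change 1.30, SE 0.074, adjusted p = 9.45e-09) and fell 1.23-fold with PFI-3 (log2 fold change -0.30, SE 0.069, adjusted p = 0.0188), a call lost without TGF-β replicate 1 or 2 or Both replicate 1 (adjusted p up to 0.0894). *Gss* overlaps *Acss2* on the opposite strand, which had more counts (3125 against 1036 on average). *Gclc* and *Gclm* encode the catalytic and modifier subunits of glutamate–cysteine ligase, the step that limits glutathione synthesis. *Gclm* rose 1.89-fold (log2 fold change 0.92, SE 0.058, adjusted p = 2.29e-08). *Gclc* had the largest replicate spread of the 44 genes (a coefficient of variation of 27.2% in Stem), with 1963, 1154, and 1427 in Stem, 2988, 2882, and 2708 with TGF-β1, and 2435, 2420.2, and 2296 with TGF-β1 plus PFI-3. Its log2 fold change from Stem to TGF-β was 0.92 (SE 0.14, adjusted p = 5.88e-05), and with PFI-3 it was -0.26 (SE 0.13, adjusted p = 0.254). Without Stem replicate 1 the rise of *Gclc* was 1.15 on the log2 scale, past 2-fold, and the PFI-3 difference had an adjusted p of 0.0197.

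Of the 5 glutathione peroxidases among the 44 genes, which remove hydrogen peroxide or lipid peroxides, 4 rose and 1 fell with TGF-β1. *Gpx7*, an endoplasmic reticulum peroxidase that works with protein disulfide isomerases more than with glutathione, had 585, 661, and 586 normalized counts in Stem, 1461, 1505, and 1411 with TGF-β1, and 1273, 1242, and 1221 with TGF-β1 plus PFI-3. Its groups did not overlap, and it rose 2.39-fold (log2 fold change 1.26, SE 0.056, adjusted p = 9.61e-10). With PFI-3 *Gpx7* fell 1.17-fold (log2 fold change -0.23, SE 0.053, adjusted p = 0.0192), which was lost without TGF-β replicate 1 or 2 or Both replicate 1 or 3 (adjusted p up to 0.0925). The others moved little: the log2 fold changes were 0.32 for *Gpx8*, 0.26 for the cytosolic *Gpx1*, and 0.23 for *Gpx4*, which protects membrane lipids. The call on *Gpx1* was lost when libraries were scaled by total counts (log2 fold change 0.14, adjusted p = 0.147). *Gpx3*, the secreted form, fell by 0.12 on the log2 scale (adjusted p = 0.0383) with overlapping groups. That call was lost in 11 of 16 alternatives, which include leaving out any library other than Stem replicate 3. *Gpx1*, *Gpx3*, *Gpx4*, and *Gpx8* did not pass the test with PFI-3, at adjusted p of 0.736, 0.866, 0.566, and 0.756.

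The glutathione S-transferases, which attach glutathione to electrophiles, mostly fell: 5 of the 6 were lower with TGF-β1. *Gstm1* (ENSMUSG00000058135) had 4983, 5091, and 5256 normalized counts in Stem, 657, 642, and 652 with TGF-β1, and 601, 602, and 616 with TGF-β1 plus PFI-3. Its Stem values lay far above the rest, and its fall was 7.86-fold (log2 fold change -2.97, SE 0.041, adjusted p = 9.59e-14). *Gstt1* (ENSMUSG00000001663), of the theta class, had 1182, 1405, and 1224 in Stem, 178, 198, and 183 with TGF-β1, and 166, 167, and 147 with TGF-β1 plus PFI-3. It fell 6.82-fold (log2 fold change -2.77, SE 0.085, adjusted p = 3.3e-11). With PFI-3 neither passed the test (adjusted p = 0.176 for *Gstm1* and 0.2 for *Gstt1*). *Gstm2* and *Gstm5* fell 1.32-fold and 1.57-fold with TGF-β1. *Gstm5* overlaps the antisense gene *4933431E20Rik* on the opposite strand, which had 531 counts on average against 967. The Gstm genes are close relatives, and how reads shared between them were counted is not given in the sources used here.

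*Gsta4* (ENSMUSG00000032348), which clears the lipid peroxidation product 4-hydroxynonenal, had the largest response to PFI-3 among the 44 genes. Its levels were 143, 196, and 182 normalized counts in Stem, 105, 114, and 88.8 with TGF-β1, and 50.4, 52.3, and 45.6 with TGF-β1 plus PFI-3. Each group lay below the one before it without overlap. *Gsta4* fell 1.70-fold with TGF-β1 (log2 fold change -0.76, SE 0.14, adjusted p = 0.000342) and 2.07-fold with PFI-3 (log2 fold change -1.05, SE 0.16, adjusted p = 0.00199). It was the least expressed of the 44 per kilobase in TGF-β and Both. Its adjusted p with PFI-3 stayed between 0.000573 and 0.0128 over the fits that left out a library, but the log2 fold change was -0.97 without TGF-β replicate 2 and -0.99 without Both replicate 3, short of 2-fold. *Gstp1*, of the pi class, had 2185, 2314, and 2321 in Stem, 2482, 2576, and 2331 with TGF-β1, and 2119, 2169.5, and 2183 with TGF-β1 plus PFI-3. It differed by 0.12 on the log2 scale between Stem and TGF-β (adjusted p = 0.0348), which turned to -0.0034 when libraries were scaled by total counts and was lost without Stem replicate 1 or TGF-β replicate 1 or 2 (adjusted p up to 0.122). With PFI-3 it fell 1.14-fold (log2 fold change -0.19, SE 0.045, adjusted p = 0.0213), lost without TGF-β replicate 1 or 2 or Both replicate 1 or 3 (adjusted p up to 0.106). *Gstp1* has near-identical copies, so its counts are uncertain.

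Of the superoxide dismutases and catalase, 2 genes rose and 2 fell with TGF-β1. *Sod1*, the cytosolic enzyme, rose by 0.30 on the log2 scale with TGF-β1, whereas the mitochondrial *Sod2* fell by 0.27 and the extracellular *Sod3* by 0.74 (adjusted p = 0.00263, 0.00357, and 5.14e-05). The call on *Sod1* was lost when libraries were scaled by total counts. None of the 3 passed the test with PFI-3, where the log2 fold changes were -0.05, 0.07, and 0.04 with adjusted p from 0.603 to 0.866. *Cat*, which encodes the peroxisomal catalase, had 1919, 1984, and 2186 normalized counts in Stem, 3306, 3351, and 3418 with TGF-β1, and 2651, 2787, and 2622 with TGF-β1 plus PFI-3. Both lay between the other groups with no overlap. *Cat* rose 1.65-fold (log2 fold change 0.73, SE 0.050, adjusted p = 5.01e-08) and fell 1.25-fold with PFI-3 (log2 fold change -0.32, SE 0.049, adjusted p = 0.0017).

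The 6 peroxiredoxins, thiol peroxidases of different compartments, also split, with 3 higher, 1 lower, and 2 not called with TGF-β1. *Prdx6*, the form that uses glutathione, had 2528, 3036, and 2712 normalized counts in Stem, 6179, 7182, and 6629 with TGF-β1, and 5612, 6025, and 5432 with TGF-β1 plus PFI-3. It rose 2.42-fold (log2 fold change 1.27, SE 0.072, adjusted p = 8.46e-09). All Both values of *Prdx6* lay below all TGF-β values, but the difference did not pass the test (log2 fold change -0.23, SE 0.070, adjusted p = 0.0642). The mitochondrial *Prdx3* rose 1.82-fold and *Prdx5* fell 1.39-fold (adjusted p = 6.4e-07 and 1.06e-06). *Prdx2* differed by 0.10 on the log2 scale (adjusted p = 0.0336), which turned to -0.015 when libraries were scaled by total counts and was lost without Stem replicate 3 or any TGF-β library (adjusted p up to 0.149). On the opposite strand *Prdx2* overlaps *Junb* (1319 counts on average against 5506) and *Rnaseh2a* (374), and *Prdx5* overlaps *Trmt112* (1094 against 5150). The log2 fold change was 0.09 for *Prdx1* (adjusted p = 0.12) and -0.08 for *Prdx4* (adjusted p = 0.336). *Prdx1* was called without Stem replicate 2 (adjusted p = 0.00699), and *Prdx4* without Stem replicate 1, where its adjusted p was 0.0250. With PFI-3 all 6 log2 fold changes were below 0, from -0.23 to -0.05, and none passed the test. At an unadjusted p below 0.05 the count was 1, and DESeq2 called *Prdx6*.

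*Txn1*, thioredoxin, which hands electrons to peroxiredoxins, had 2616, 2225, and 2500.1 normalized counts in Stem, 4837, 5055, and 4866 with TGF-β1, and 4196, 4306, and 4326 with TGF-β1 plus PFI-3. It rose 2.01-fold (log2 fold change 1.01, SE 0.053, adjusted p = 4.42e-09), just past the threshold, and was at 0.95 without Stem replicate 2 and 0.99 without TGF-β replicate 2 on the log2 scale. Among the alternatives that kept all libraries, its lowest value was 0.886, also short of 2-fold. With PFI-3 *Txn1* fell 1.15-fold (log2 fold change -0.20, SE 0.052, adjusted p = 0.0313) with no overlap. That call was lost without Stem replicate 3 and without each of the TGF-β and Both libraries, with adjusted p up to 0.127, and under scaling by total counts (adjusted p = 0.0926). *Txnrd1*, the reductase that recharges thioredoxin, rose 1.28-fold with TGF-β1 (adjusted p = 1.57e-05) and had a log2 fold change of -0.10 with PFI-3 (adjusted p = 0.207).

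The metallothioneins *Mt1* (ENSMUSG00000031765) and *Mt2* (ENSMUSG00000031762), small cysteine-rich proteins that bind zinc and copper, were among the genes that rose most. *Mt2* had 712, 905, and 721 normalized counts in Stem, 5984, 7910.4, and 6195 with TGF-β1, and 6953, 8712, and 8486 with TGF-β1 plus PFI-3. *Mt1* had 635, 735, and 775 in Stem, 4299, 5442, and 4464 with TGF-β1, and 4787, 5545, and 5602 with TGF-β1 plus PFI-3. For both genes every Stem library was far below every TGF-β and Both library, and the TGF-β and Both libraries overlapped. *Mt2* rose 8.60-fold (log2 fold change 3.10, SE 0.13, adjusted p = 5.94e-10) and *Mt1* 6.63-fold (log2 fold change 2.73, SE 0.10, adjusted p = 2.2e-10). With PFI-3 the log2 fold changes were 0.27 for *Mt2* (SE 0.11, adjusted p = 0.182) and 0.17 for *Mt1* (SE 0.091, adjusted p = 0.299). The ratio of *Mt2* to *Mt1* per kilobase within a library was 2.32 ± 0.324 (SD, n = 3) in Stem, 3.00 ± 0.0783 with TGF-β1, and 3.21 ± 0.126 with PFI-3 added. Without division by length, the ratio of counts was 1.09 ± 0.153, 1.41 ± 0.0369, and 1.51 ± 0.0594, and it was 0.930 in Stem replicate 3. The size of the ratio per kilobase therefore depends on the transcript lengths used.

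The promoter windows of these neighbours on chromosome 8 are printed because metallothionein genes are known for switching on through metal response elements. Both lie on the plus strand of GRCm38.p6, *Mt1* at chr8:94178839-94179138 and *Mt2* at chr8:94172368-94172667, as RefSeq gives them. Capitals mark the letters TGCNCNC on either strand, a loose form of the element's core that allows any base at each N. A marked stretch is therefore not by itself a metal response element.
Mt1: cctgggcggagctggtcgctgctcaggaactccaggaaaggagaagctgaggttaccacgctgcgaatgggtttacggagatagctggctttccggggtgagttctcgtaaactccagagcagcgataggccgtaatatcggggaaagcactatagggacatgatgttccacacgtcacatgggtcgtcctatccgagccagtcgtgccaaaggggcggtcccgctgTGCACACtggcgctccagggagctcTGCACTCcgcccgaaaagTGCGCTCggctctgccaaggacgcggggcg
Mt2: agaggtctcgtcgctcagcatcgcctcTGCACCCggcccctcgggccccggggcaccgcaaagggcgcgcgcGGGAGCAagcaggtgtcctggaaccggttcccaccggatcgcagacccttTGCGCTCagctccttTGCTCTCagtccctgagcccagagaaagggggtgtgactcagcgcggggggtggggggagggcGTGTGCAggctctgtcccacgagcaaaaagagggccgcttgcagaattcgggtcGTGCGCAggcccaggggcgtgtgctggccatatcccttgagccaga

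This loose core matched 3 times in the *Mt1* window and 6 times in that of *Mt2*. It is short, and 51.0% of all promoter windows and 53.2% of those of the redox genes hold at least 1 match. Windows with 4 or more matches, as *Mt2* has, made up 2.30% of all.

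Ferritin stores iron in shells of light and heavy subunits, encoded by *Ftl1* (ENSMUSG00000050708) and *Fth1* (ENSMUSG00000024661), and the subunits moved in opposite directions. *Ftl1* had 32127, 33275, and 30425 normalized counts in Stem, 67711, 74988, and 68764 with TGF-β1, and 66621, 72823, and 70743 with TGF-β1 plus PFI-3. *Fth1*, whose protein carries the ferroxidase activity, had 75897, 79804, and 81335 in Stem, 42709.7, 45112, and 41028 with TGF-β1, and 42510.3, 43415, and 41677 with TGF-β1 plus PFI-3. In each gene Stem stood apart, and TGF-β and Both overlapped. *Ftl1* rose 2.21-fold (log2 fold change 1.14, SE 0.054, adjusted p = 1.61e-09) and *Fth1* fell 1.84-fold (log2 fold change -0.88, SE 0.046, adjusted p = 4.06e-09). Within a library the ratio of *Ftl1* to *Fth1* per kilobase was 0.653, 0.644, and 0.577 in Stem, 2.45, 2.57, and 2.59 with TGF-β1, and 2.42, 2.59, and 2.62 with TGF-β1 plus PFI-3. The ratio does not depend on library scaling, and it lay below 1 in every Stem library and above 2 in every other library. It does depend on the transcript lengths used. Without division by length, the ratio of counts was 0.374 to 0.423 in Stem and 1.57 to 1.70 in the other libraries. The mean ratio per kilobase of the 3 libraries was 0.625 ± 0.0413 (SD) in Stem, 2.53 ± 0.0754 with TGF-β1, and 2.54 ± 0.108 with PFI-3 added. An exact permutation test of 3 against 3 libraries cannot give a 2-sided p below 0.1, so none is given. With PFI-3 both log2 fold changes were -0.01 (SE 0.053 and 0.045, adjusted p = 0.947 for *Ftl1* and 0.895 for *Fth1*). *Ftl1* has processed copies in the genome, so reads shared with them are uncertain.

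**Figure D3:**
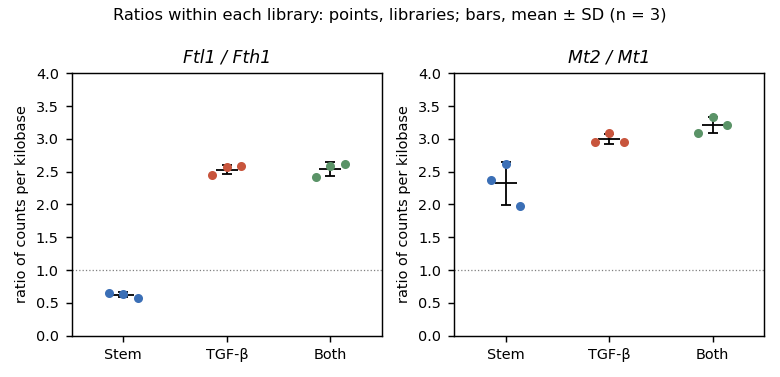
Ratio of normalized counts per kilobase of *Ftl1* to *Fth1* (left) and of *Mt2* to *Mt1* (right) within each library, with mean ± SD of 3 libraries per group, both axes from 0. The ferritin ratio lies below the dotted line at 1 in the 3 Stem libraries and between 2.42 and 2.62 in the 6 others, and the metallothionein ratio is above 1 throughout. Both ratios depend on the transcript lengths used, and without division by length the metallothionein ratio was 0.930 in Stem replicate 3.

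Malic enzyme and all 4 enzymes of the pentose phosphate pathway among the 44 rose with TGF-β1. *Me1*, malic enzyme 1, which makes NADPH from malate in the cytosol, had 3772, 3784, and 3811 normalized counts in Stem, 11457, 10990.4, and 11856 with TGF-β1, and 11792, 10539.7, and 11821 with TGF-β1 plus PFI-3. Stem lay below the rest, TGF-β and Both overlapped, and the rise was 3.02-fold (log2 fold change 1.59, SE 0.050, adjusted p = 4.08e-11). *Me1* had a log2 fold change of -0.006 with PFI-3 (SE 0.048, adjusted p = 0.96). In the oxidative branch of the pentose phosphate pathway, *G6pdx*, the enzyme of its first step, had 2608, 2369, and 2655 in Stem, 3737, 3730.1, and 3872 with TGF-β1, and 3212, 3201, and 3287 with TGF-β1 plus PFI-3. *G6pdx* rose 1.49-fold (adjusted p = 1.93e-07) and fell 1.17-fold with PFI-3 (log2 fold change -0.23, SE 0.044, adjusted p = 0.00858), and its groups did not overlap. It overlaps *Ikbkg* on the opposite strand, which had 3485 counts on average against 3199. *Pgd*, the next dehydrogenase, rose 1.67-fold (adjusted p = 1.26e-08) and had a log2 fold change of -0.09 with PFI-3 (adjusted p = 0.207).

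Transaldolase and transketolase run the nonoxidative branch, which returns pentoses to glycolysis. *Taldo1* had 2178, 2009, and 1988 normalized counts in Stem, 3572, 3529, and 3469.9 with TGF-β1, and 3061, 3024, and 2939 with TGF-β1 plus PFI-3. *Tkt* had 4902, 5582, and 5232 in Stem, 8907, 9636, and 9067 with TGF-β1, and 7341, 7928, and 7779.9 with TGF-β1 plus PFI-3. For both enzymes Both lay between the other groups with no overlap. *Taldo1* rose 1.71-fold (adjusted p = 6.02e-09) and fell 1.17-fold with PFI-3 (log2 fold change -0.23, SE 0.041, adjusted p = 0.00523). *Tkt* rose 1.76-fold (adjusted p = 3.22e-08) and fell 1.20-fold (log2 fold change -0.26, SE 0.052, adjusted p = 0.00922). The fall of *Tkt* was lost without TGF-β replicate 2 or Both replicate 1, where the adjusted p reached 0.0536. The molybdenum enzyme aldehyde oxidase, *Aox1*, had 970.5, 1152, and 1100.2 in Stem, 592, 602, and 539.9 with TGF-β1, and 498, 518, and 487 with TGF-β1 plus PFI-3. It fell 1.86-fold with TGF-β1 (adjusted p = 2.07e-07) and was 2.14-fold lower in Both than in Stem, whereas with PFI-3 its log2 fold change was -0.21 (SE 0.074, adjusted p = 0.107).

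**Figure D4:**
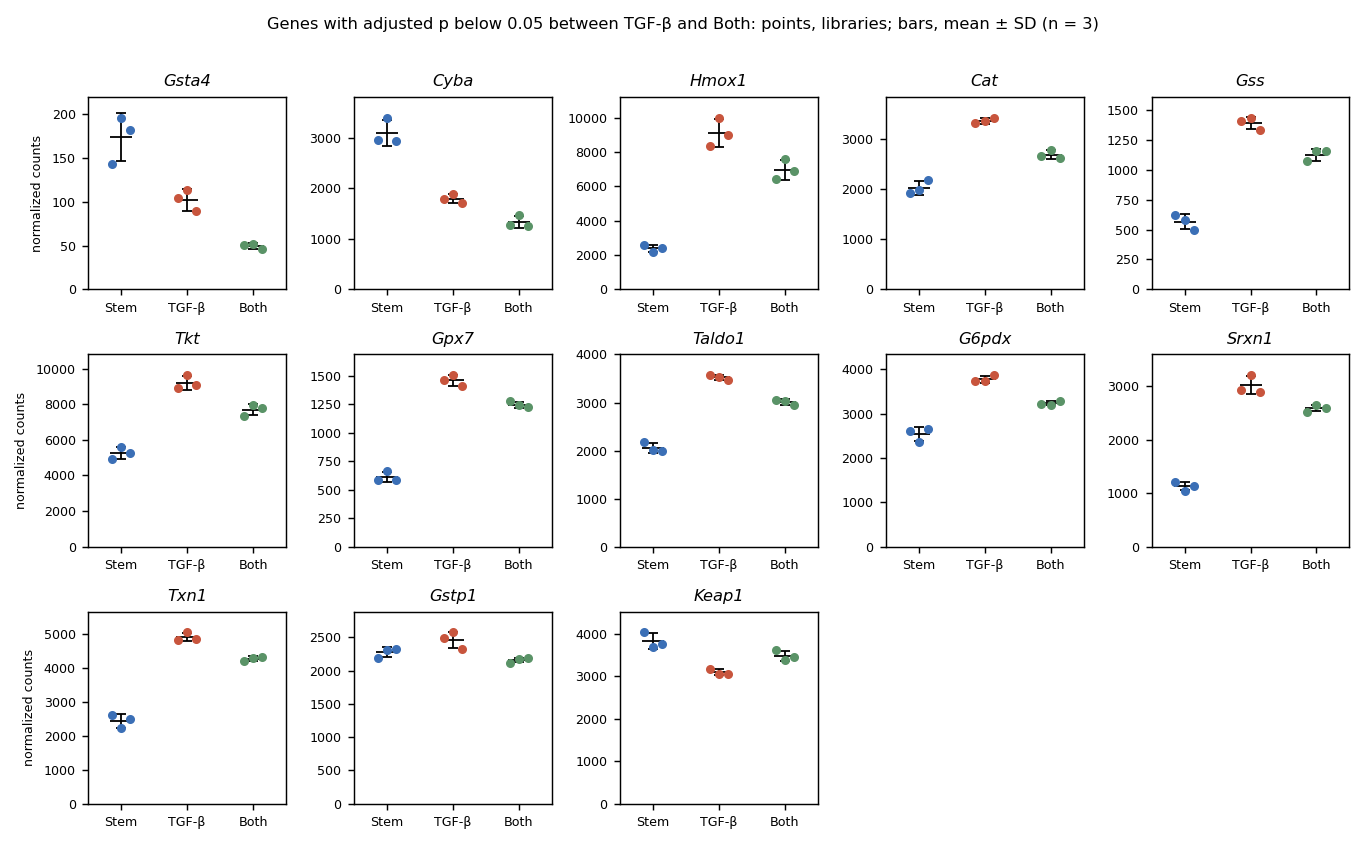
Normalized counts per library (vertical axes, each from 0) of the 13 genes with an adjusted p below 0.05 between TGF-β and Both, with the mean ± SD of the 3 libraries. The 3 Both libraries lie below the 3 TGF-β libraries in 12 panels and above them for *Keap1*. The genes were chosen by this test, so their separation is not further evidence.

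Seen across roles, the 13 calls with PFI-3 touched the oxidase partner *Cyba*, the NRF2 sensor *Keap1*, the targets *Hmox1* and *Srxn1*, the glutathione genes *Gss*, *Gpx7*, *Gsta4*, and *Gstp1*, catalase, thioredoxin, and 3 pentose phosphate enzymes. Fold changes of the 12 that fell ran from 1.14 for *Gstp1* to 2.07 for *Gsta4*. *Cyba*, *Hmox1*, *Gsta4*, *Cat*, *G6pdx*, and *Taldo1* kept their calls under all 16 alternatives. Leaving out TGF-β replicate 1 brought the 13 calls to 7, TGF-β replicate 2 to 6, Both replicate 1 to 6, and Both replicate 3 to 8.

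Between Stem and Both, which differ in medium, TGF-β1, and PFI-3, 26 of the 44 genes were higher and 14 lower in Both at an adjusted p below 0.05, against a background of 73.3%, 36.6% higher and 36.6% lower. Past 2-fold, 11 were higher and 5 lower, against a background of 22.8%, 9.55% higher and 13.2% lower. Among genes with a mean of at least 100 normalized counts, 41.7% were higher and 35.7% lower at an adjusted p below 0.05. Past 2-fold, these shares were 7.21% and 7.62%. The groups did not overlap in 40 of the 44 genes, against a background of 74.7%. The 5 lower genes past 2-fold were *Gstm1*, *Gstt1*, *Gsta4*, *Cyba*, and *Aox1*, with log2 fold changes of -3.07, -2.99, -1.81, -1.21, and -1.10. *Mt2*, *Mt1*, and *Nox4* were highest in this comparison, at 3.37, 2.89, and 2.84. *Gstp1*, *Prdx1*, *Prdx2*, and *Prdx4* did not pass the test.

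Ranked by normalized counts per kilobase, ferritin led the 44 genes in each group. The ranks depend on the transcript length taken for each gene. *Fth1* was first in Stem with 52886 ± 1877, followed by *Ftl1* with 32998 ± 1481 (SD, n = 3), and these did not overlap. In TGF-β *Ftl1* was first with 72818 ± 4063, *Fth1* next with 28748 ± 1374, and *Mt2* after them with 13104 ± 2068. *Sod1* followed with 6625 ± 823 in Stem and 8155 ± 153 in TGF-β, and *Prdx1* after it with 5632 ± 380 and 6008 ± 240.2. At the low end in Stem were *Nqo1* with 137 and *Nox4* with 161 per kilobase, whereas in TGF-β *Gsta4* with 105 and *Aox1* with 131 were lowest.

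Other genes of these pathways were taken from 7 lists of 137 genes, of which 106 were tested. With TGF-β1, 53 of them rose and 35 fell at an adjusted p below 0.05, and 17 rose and 16 fell past 2-fold. These are 50.0% and 33.0% called and 16.0% and 15.1% past 2-fold, beside backgrounds of 37.3% and 37.7% and of 10.6% and 14.5%. Their median log2 fold change was 0.17. Of 31 tested glutathione and cystine supply genes, 17 rose and 6 fell. *Ggt5*, a γ-glutamyl transferase that cleaves glutathione conjugates outside the cell, fell by 5.74 on the log2 scale from 1259 ± 72.6 to 23.6 ± 3.25 normalized counts (SD, n = 3, adjusted p = 7.39e-13). *Chac1*, which degrades glutathione inside the cell, rose by 3.73 from 66.8 ± 23.8 to 890 ± 28.5 (adjusted p = 2.61e-10). Of 15 tested thioredoxin and methionine sulfoxide genes, 7 rose and 5 fell. *Txnip*, the inhibitor of thioredoxin, fell by 2.13 on the log2 scale from 10714 ± 1963 to 2455 ± 26.0, and the sestrin *Sesn1* fell by 1.04 (adjusted p = 2.46e-09 and 6.34e-09).

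Among 20 tested partners and targets of NRF2, 9 rose and 7 fell with TGF-β1 (45.0% and 35.0%). These shares lie near those of all tested genes, 37.3% and 37.7%. Named by the rule were *Sqstm1*, which encodes the autophagy receptor p62 that binds KEAP1, and *Nfe2l1*, which encodes the related factor NRF1. They rose by 1.59 and 1.14 on the log2 scale (adjusted p = 2.37e-10 and 6.98e-10). The largest change of the list was a fall by 2.92 of *Aldh3a1*, an aldehyde dehydrogenase, from 153 ± 34.9 to 20.1 ± 1.52 normalized counts (adjusted p = 3.47e-07). Of 17 tested NADPH genes outside the 44, 9 rose and 6 fell (52.9% and 35.3%, beside the same backgrounds). The mitochondrial folate enzymes *Aldh1l2* and *Mthfd2* rose by 3.98 and 3.92 on the log2 scale, from 821 ± 384 to 12964 ± 595 and from 349 ± 42.6 to 5281 ± 33.8 normalized counts (adjusted p = 1.18e-08 and 4.54e-13). Of 14 tested genes of iron, zinc, and copper handling, 6 rose and 8 fell (42.9% and 57.1%, beside the same backgrounds). The ferroxidases *Heph* and *Cp*, which oxidize iron so that transferrin can take it up, fell by 2.55 and 1.42 (adjusted p = 3.16e-12 and 1.31e-06). Of 3 tested molybdenum hydroxylase genes, *Xdh*, xanthine dehydrogenase, fell by 1.81 and *Mocos*, which activates the molybdenum cofactor of XDH and AOX1, rose by 1.75 (adjusted p = 7.86e-09 and 5.85e-08). The remaining one, the aldehyde oxidase *Aox3*, fell by 4.44, from 129 ± 44.2 to 5.79 ± 1.16 normalized counts (adjusted p = 2.07e-07). *Aldh3a1* and *Aox3* lay under the mean of 100 normalized counts that the rule asked for and were named after their values were seen.

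With PFI-3, 13 of these 106 genes fell and 2 rose at an adjusted p below 0.05 (12.3% and 1.89%, beside backgrounds of 5.38% and 3.54%), and none passed 2-fold by edgeR. The 13 included 7 of the glutathione and cystine list. *Slc7a11*, the cystine importer, fell 1.64-fold from 1086 ± 66.1 to 663 ± 56.7 normalized counts (log2 fold change -0.71, SE 0.072, adjusted p = 0.000128), beside 155 ± 10.9 in Stem. Its partner subunit *Slc3a2* fell by 0.37 on the log2 scale (adjusted p = 0.000312), and the ferroxidase *Cp* fell by 0.94 (adjusted p = 0.00214). The 2 that rose were *H6pd*, the endoplasmic reticulum enzyme that makes NADPH from glucose 6-phosphate, and *Xdh*, higher by 0.34 and 0.44 on the log2 scale (adjusted p = 0.000217 and 0.0179). The rule for naming genes picked none for PFI-3, and these 5 were named after their values were seen.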

How the data were processed

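The deposited table holds raw counts of reads on each Ensembl gene, in 1 column for each library, and the authors applied no normalization to it. The study's methods name Flexbar trimming, STAR alignment to GRCm39, and a stranded, ribosomal RNA–depleted library kit, whereas the submitters' processing notes list HISAT2 2.2.1, SAMtools 1.13, and HTSeq 0.11.3. Whether counting used strand, and what became of reads that align more than once, is not given in the sources used here, so genes that overlap or have near-identical copies are uncertain.

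The analysis ran in R 4.3.3 and used edgeR 4.0.16, with filterByExpr, TMM, and a quasi-likelihood test in 1 fit of 9 libraries with group as the only term and a prior count of 0.125, with Benjamini-Hochberg adjustment over 14879 genes. The threshold was an adjusted p of 0.05, and for 2-fold calls also a log2 fold change of more than 1 in either direction, the cutoffs of the study's methods, which name DESeq2. DESeq2 1.42.0 was an alternative, besides other scalings, filters, and samples, a replicate block, a TREAT test, and leaving out each library. Normalized counts are counts scaled to a library of 41184338, in which 3 counts, the floor of detection, are 2.63 to 3.26. Levels per kilobase used the length of the longest protein-coding transcript of each gene in GENCODE vM21 (GRCm38), whichever form the cells express. Overlaps between exons came from the same annotation. The code was also run on counts simulated from the fit's own estimate of the spread, with set changes larger than most of those called with PFI-3. That run checks the code, and cannot show whether the model suits these libraries or finds smaller changes.

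The 44 genes, the other lists, and the rule for naming genes were chosen with earlier results of these data known. Described library by library are the genes past 2-fold in any comparison, those with an adjusted p below 0.05 between TGF-β and Both, and *Nox4*, *Cyba*, *Nfe2l2*, *Keap1*, *Mt1*, and *Mt2*. From each other list come the 2 genes with the largest change past 2-fold and a mean of at least 100 normalized counts. *Nnt* had 2 identifiers and is not reported. The CUT&RUN and animal experiments were not analysed here.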

Additional observations from a re-analysis of the deposited data

How the results depend on the processing

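Of the calls at an adjusted p below 0.05, 37 of 42 between Stem and TGF-β, 6 of 13 between TGF-β and Both, and 34 of 40 between Stem and Both held under all 16 alternatives. The direction of a called gene turned in 2 cases, both between Stem and TGF-β under scaling by total counts, which gave -0.0034 for *Gstp1* and -0.015 for *Prdx2* on the log2 scale. That scaling moved the median of all genes to -0.12 between Stem and TGF-β and to -0.11 between Stem and Both, and it left 24 redox genes higher and 15 lower in place of 28 and 14. Between TGF-β and Both it left 10 redox genes called, all lower, and ended the calls on *Keap1*, *Srxn1*, and *Txn1*. Stricter use of the fold threshold cut the counts by construction. With edgeR's TREAT test against 2-fold, 2479 of 3739 genes passed between Stem and TGF-β, 4 of 94 between TGF-β and Both (75 at an unadjusted p below 0.05), and 2104 of 3385 between Stem and Both. Of the redox genes, 14, 0, and 13 passed it in place of 15, 1, and 16. Without the filter on low counts, 163 genes passed 2-fold between TGF-β and Both and 19 redox genes had an adjusted p below 0.05, in place of 94 and 13, the added ones being *Gclc*, *Gclm*, *Gstm2*, *Mt1*, *Mt2*, and *Prdx6*. The cause was not tested.

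Leaving out each library in turn gave 39 to 42 redox genes called between Stem and TGF-β, 6 to 17 between TGF-β and Both, and 37 to 40 between Stem and Both. Past 2-fold these counts were 14 to 16, 0 to 1, and 16 to 17, and over all genes 3826 to 3944, 68 to 126, and 3435 to 3618. The genes that dropped below 2-fold were *Txn1* between Stem and TGF-β (without Stem or TGF-β replicate 2), *Gsta4* between TGF-β and Both (without TGF-β replicate 2 or Both replicate 3), and *Prdx6* between Stem and Both (0.99 without Stem replicate 1). Between Stem and Both, *Keap1*, *Gpx1*, *Gpx3*, and *Sod2* lost their calls without at least 1 library, with adjusted p up to 0.0700, 0.0611, 0.0790, and 0.0860. With the replicate number as a block, 43, 19, and 41 redox genes were called in the 3 comparisons in place of 42, 13, and 40, and 3736 genes (Stem against TGF-β) and 120 (TGF-β against Both) passed 2-fold. Deviations from the group means correlated above 0.1 in 4 of 9 same-numbered pairs (-0.054 to 0.196 over the 9), among them all 3 pairs of replicate 2. Not every library correlated best with its own number, and no label ties the numbers to a shared source, so the libraries were not taken as paired. DESeq2 called 41, 14, and 40. No gene of the 44 was at the limit of detection, so a prior count of 2 was not run. With 3 libraries per group, differences under about the replicate spread were not detectable, and a p that misses the threshold does not show that levels were equal.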
